A study of Rattus norvegicus with 421 samples.

Results

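The transcription factors that define the hepatocyte were followed here as 7 genes, Hnf4a, Cebpa, Cebpb, Foxa1, Foxa2, Foxa3 and Onecut1. They were found by symbol among the 10411 named genes of the array, and were chosen with earlier results of these data known. They were measured by 9 probe sets out of 15866, since Hnf4a and Onecut1 had a pair each and the other genes 1. Members of such a network bind each other's promoters and enhancers and hold the hepatocyte in its adult state. Hnf4a is a nuclear receptor that drives lipoprotein, clotting factor and drug metabolism genes. Cebpa drives metabolic genes and restrains division, and Cebpb rises in the acute phase and in regeneration. Foxa1, Foxa2 and Foxa3 are forkhead factors that open liver chromatin, and Onecut1, also called HNF6, is a cut-homeodomain factor that in rat liver responds to growth hormone.

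The livers came from male Wistar Hanover rats that were 8 to 10 weeks old, 5 animals a group, of which 3 were chosen for arrays, and every animal was dosed by gastric gavage. The paper states that the 3 of a treated group were picked for showing some liver change by histopathology. Treated arrays are therefore not an unselected sample of their groups. There were 293 arrays of 98 treated groups, covering 30 compounds, and 128 arrays of 38 vehicle groups. Groups held 3 arrays, except 1 group of 2, 2 groups of 4 and 4 groups of 6. Each treated group was set against the vehicle group that its own label names, given corn oil (30 arrays), carboxymethylcellulose (86 arrays) or saline (12 arrays) for the same time. Vehicle names carry 1 of 10 codes (1A, 1B, 1C, 1D, 1F, 1H, 1J, 1M, 1N and 1O), called blocks below, and the labels do not say what a code stands for. The groups named below received nifedipine (Nif, a calcium channel blocker, 3 mg/kg), acetamide (AA, 3000 mg/kg), dehydroepiandrosterone (DHEA, 600 mg/kg), ethionine (ETH, 200 mg/kg), C.I. Direct Black (CIDB, 146 mg/kg), diethylstilbestrol (DES, 10 mg/kg), 3-methylcholanthrene (3-MC, 25 mg/kg), methapyrilene (MPy, 60 mg/kg), aflatoxin B1 (AB1, 0.24 mg/kg), thioacetamide (TAA, 19.2 mg/kg), dimethylnitrosamine (DMN, 4 mg/kg), allyl alcohol (AlAl, 36 mg/kg), N-nitrosomorpholine (NNM, 3.5 mg/kg), the tobacco nitrosamine NNK (20 mg/kg), piperonyl butoxide (PBO, 1200 mg/kg), methylcarbamate (Mcarb, 400 mg/kg) and Wy-14643 (Wy, 60 mg/kg). Acetaminophen (Aap, 4250 mg/kg) was timed in hours, and all other compounds in days, up to 14. The vehicles of block 1O also served cefuroxime (CFX, 250 mg/kg), clonidine (Clon, 0.1 mg/kg), ibuprofen (Ibup, 94 mg/kg), prazosin (Praz, 1 mg/kg) and propranolol (Prop, 40 mg/kg). The remaining compounds were 2-acetylaminofluorene (2-AAF, 1.2 mg/kg), 2-nitrofluorene (2-NF, 44 mg/kg), cyproterone acetate (CPA, 100 mg/kg), 1,4-dichlorobenzene (DCB, 300 mg/kg), methylendianiline (MDA, 50 mg/kg), N-nitrosopiperidine (NPip, 20 mg/kg) and phenobarbital (PB, 80 mg/kg).

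The values are log2 signals, 1 per probe set and array, with array medians between 7.38 and 7.49. Hepatocyte markers were above the array medians on every array, with Alb between 14.86 and 15.19, Ttr between 13.95 and 14.45 and Serpina1 between 13.90 and 14.36. Apoa1 and Cps1 ranged more widely, from 12.32 to 14.48 and from 10.57 to 13.72. No 2 arrays held identical values. A change below is a treated mean minus its vehicle mean in log2 units, with the standard error (SE) of the fit, and it was called when its adjusted p was under 0.05 and its size at least 1.5-fold. RNA came from liver tissue rather than sorted cells, so fewer hepatocytes and less RNA per hepatocyte cannot be told apart. Nothing in the labels says whether arrays of a group were processed together, so p-values measure the spread between these arrays. In the 4 vehicle groups of 6 arrays (block 1D at days 3 and 7, block 1F at days 7 and 14), arrays numbered 1 and 2, 3 and 4, and 5 and 6 lay close to each other. Their deviations from the group mean, over all probe sets, correlated above 0 in 11 of 12 such pairs (median r 0.26), against 2 of the 48 other pairs of these groups (median r -0.31) and 3 of 387 pairs in groups of 3 arrays (median r -0.50). They may be repeat arrays of 3 livers, which the labels do not say, and p-values against those groups may then be too small. With each such pair averaged, 45 of 46 member calls against vehicle remained, and the exception is given where it is described.

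RefSeq promoter windows of the GRCr8 build, from 250 bases before to 50 bases after a start, were found for 5 of the 7 genes, as 6 windows. The 2 Hnf4a windows and the Cebpa window are shown, since these genes moved together in the groups described first. Capitals mark matches, on either strand, to the HNF1 core GTTAAT (in 7.45% of 33469 rat windows of this length) or the ONECUT core ATTGAT (8.06%). The forkhead core TGTTTAC (3.78%), the C/EBP site TTGCNNAA (10.6%) and the HNF4 site CAAAGTCCA (0.391%) were searched too and none of the 6 windows held them. Adult liver is known to start Hnf4a at a downstream promoter and pancreas at an upstream one.
Hnf4a upstream window, chr3:172605970-172606269, plus strand: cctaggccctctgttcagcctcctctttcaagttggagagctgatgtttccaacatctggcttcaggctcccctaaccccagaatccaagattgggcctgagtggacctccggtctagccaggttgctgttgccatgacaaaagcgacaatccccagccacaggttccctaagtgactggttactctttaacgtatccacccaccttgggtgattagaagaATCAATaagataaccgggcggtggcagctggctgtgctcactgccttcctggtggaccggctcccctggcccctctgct
Hnf4a downstream window, chr3:172641586-172641885, plus strand: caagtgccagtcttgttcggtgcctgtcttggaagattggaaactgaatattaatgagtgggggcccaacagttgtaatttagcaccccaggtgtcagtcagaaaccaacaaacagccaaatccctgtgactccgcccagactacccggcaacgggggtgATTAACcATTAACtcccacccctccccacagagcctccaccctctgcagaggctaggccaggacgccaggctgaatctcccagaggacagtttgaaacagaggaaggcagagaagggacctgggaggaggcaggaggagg
Cebpa window, chr1:96896334-96896633, plus strand: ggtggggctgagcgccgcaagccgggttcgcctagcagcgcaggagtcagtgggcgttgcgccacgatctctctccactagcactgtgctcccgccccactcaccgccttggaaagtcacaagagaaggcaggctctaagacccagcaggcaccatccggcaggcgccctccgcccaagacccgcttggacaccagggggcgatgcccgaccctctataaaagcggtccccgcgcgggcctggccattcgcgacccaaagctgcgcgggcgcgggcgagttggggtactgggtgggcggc
The upstream window held 1 ONECUT match, the downstream window 2 HNF1 cores with 1 base between them, and the Cebpa window no match. Foxa2 had 1 ONECUT match and the Foxa3 and Cebpb windows none. A match is a run of letters and not a bound site. Foxa1 and Onecut1 are named only.

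In vehicle livers the members differed in signal, which depends on each probe set and is not compared between genes. The 128 vehicle arrays ran from 7.70 to 10.04 for Hnf4a (median 9.21), 7.38 to 9.74 for Cebpa (median 8.84) and 9.13 to 10.99 for Cebpb (median 10.12). They ran from 6.77 to 8.03 for Foxa1 (median 7.41), 8.08 to 9.75 for Foxa2 (median 9.14) and 6.43 to 9.59 for Foxa3 (median 8.43). Onecut1 had by far the widest span, from 6.14 to 11.04 (median 9.39), and its second probe set ran from 6.16 to 9.81. Mean within-group SDs of vehicle groups were 0.21 for Hnf4a, 0.24 for Cebpa, 0.28 for Cebpb, 0.18 for Foxa1, 0.40 for Foxa2, 0.33 for Foxa3 and 1.00 for Onecut1.

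Vehicle levels of Hnf4a also differed between blocks. Block means were 8.76 ± 0.40 in 1H (SD, 14 arrays), 8.81 ± 0.20 in 1D (18 arrays) and 8.91 ± 0.30 in 1F (18 arrays), and between 9.14 in 1J and 9.57 in 1A elsewhere. With the arrays that follow each other averaged in the groups of 6, the means were 8.81 ± 0.16 in 1D and 8.96 ± 0.27 in 1F (12 values each). The change of a treated group is therefore read against the vehicle arrays of its own block.

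Over the 98 treated groups and 7 genes, 23 of 686 changes were called higher and 23 lower, in 28 groups of 13 compounds, and 70 groups had none. The background in the same 98 groups was 1.02% of probe sets higher and 0.731% lower. Hnf4a accounted for 9 rises and 6 falls, Cebpa for 4 and 6, Foxa3 for 4 and 2, Cebpb for 6 rises, Foxa1 for 7 falls, Foxa2 for 2 falls and Onecut1 for none. Without the arrays numbered 1 the falls numbered 15.

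**Figure D1:**
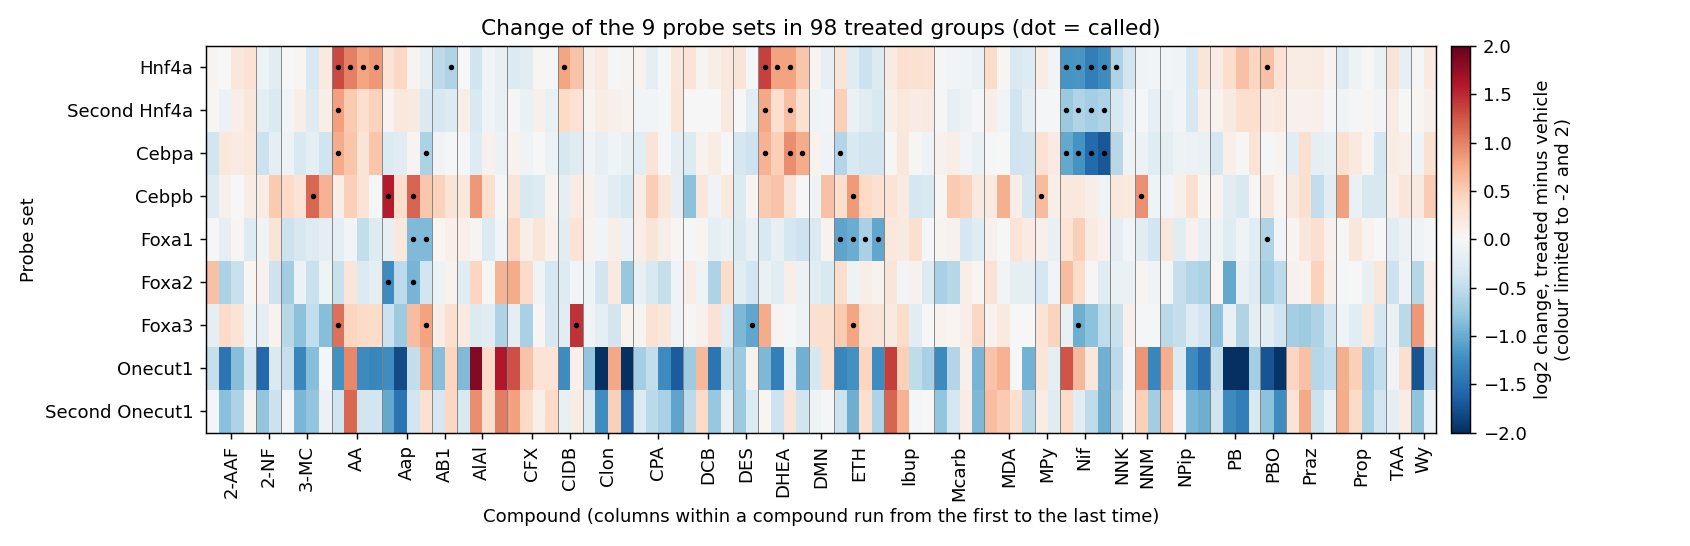
Log2 change, treated minus vehicle, of the 9 probe sets (rows, the probe set standing for a gene above its second one) in 98 treated groups (columns, by compound and then time), with colour limited to -2 and 2 and a dot for each called change. Nif stands out as a run of 4 called falls of Hnf4a and Cebpa, AA and DHEA as called rises of Hnf4a, ETH as 4 called falls of Foxa1, and Onecut1 as the row with strong colours and no dot.

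Nifedipine livers at day 7 had the lowest Hnf4a and Cebpa group means of the series (8.06 and 7.38), and both genes fell at each day. At day 7, Hnf4a measured 7.73, 8.00 and 8.46 in Nif livers, against 9.47, 9.16 and 9.72 in vehicle livers. At day 14 it measured 8.24, 8.01 and 8.26 in Nif livers, against 9.53, 9.53 and 9.23 in vehicle livers. No Nif array reached the lowest vehicle array on either day.

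The same separation held at the early times. Day 1 gave 8.25, 8.30 and 8.66 in Nif livers, against 9.65, 9.56 and 9.55 in vehicle livers. Day 3 gave 8.11, 8.31 and 8.31 in Nif livers, against 9.30, 9.40 and 9.54 in vehicle livers. Hnf4a thus fell by 1.19, 1.17, 1.39 and 1.26 on the log2 scale at days 1, 3, 7 and 14 (SE 0.16 each, largest adjusted p 7.59e-09), a 2.25-fold to 2.61-fold difference. The second Hnf4a probe set fell by 0.75, 0.61, 0.68 and 0.62 (SE 0.13 each), called at each day. The background of these 4 comparisons was 0.977%, 1.2%, 1.42% and 1.19% of all probe sets called lower at days 1, 3, 7 and 14, and 0.0378%, 0.485%, 0.851% and 0.473% were called higher. The changes at day 14 and day 1 differed by -0.07 (SE 0.23, adjusted p = 0.999).

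Cebpa fell with a wider spread. At day 14 it measured 7.70, 6.95 and 7.58 in Nif livers, against 9.21, 9.25 and 8.86 in vehicle livers, a change of -1.70 (SE 0.23, adjusted p = 1.73e-09). At day 7 it measured 6.45, 7.65 and 8.03 in Nif livers, against 9.10, 8.74 and 8.96 in vehicle livers (change -1.56). The groups lay apart on both days.

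Days 1 and 3 leaned on single arrays. At day 1, Cebpa measured 7.40, 8.07 and 8.02 in Nif livers, against 8.69, 9.28 and 8.60 in vehicle livers (change -1.03, SE 0.23, adjusted p = 0.00134). At day 3 it measured 6.65, 7.81 and 8.27 in Nif livers, against 8.97, 8.63 and 8.74 in vehicle livers (change -1.20, SE 0.23, adjusted p = 4.51e-05). Groups did not overlap, but the day 1 change was -0.81 without the first Nif array (adjusted p = 0.0860) and -0.82 without the second vehicle array (adjusted p = 0.0708), and the day 3 change was -0.74 without the first Nif array (adjusted p = 0.0861). In a fit of the compared groups alone, adjusted p was 0.0541 at day 1 and 0.0719 at day 3.

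**Figure D2:**
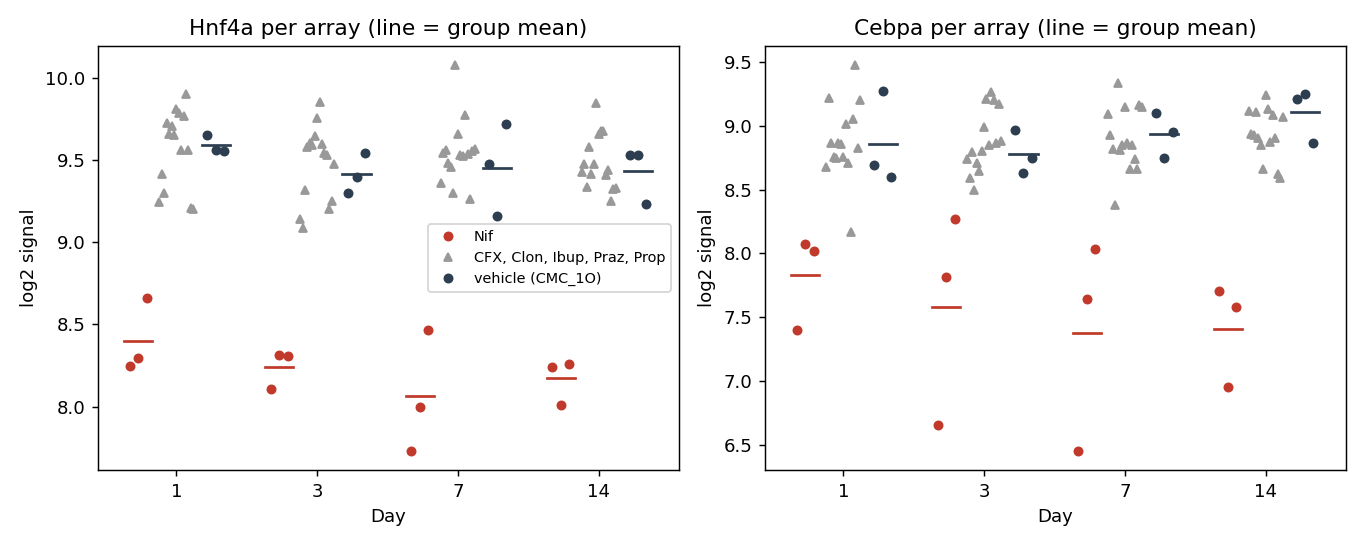
Log2 signal of Hnf4a (left) and Cebpa (right) per array by day, in Nif livers (red), livers given CFX, Clon, Ibup, Praz or Prop (grey triangles) and vehicle livers of the same block (dark), with lines at the Nif and vehicle group means. All 12 Nif arrays of Hnf4a lie between 7.73 and 8.66, below every other array of the block.

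Of the other members, Foxa3 was called in Nif livers at day 3 only (change -0.97, SE 0.33, adjusted p = 0.0451), with 7.70, 7.67 and 8.04 in Nif livers, against 9.37, 8.37 and 8.58 in vehicle livers. That call ended when any of 5 of these 6 arrays was left out, with changes between -1.09 and -0.67 and adjusted p between 0.0556 and 0.330. Day 7 Foxa3 (change -0.82) was called at -1.30 without the third Nif array and at -1.06 without the second vehicle array. Foxa1 at day 3 (change 0.47) was called at 0.60 without the second Nif array. Cebpb, Foxa2 and Onecut1 had no call in Nif livers on any day.

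All 12 Nif arrays of Hnf4a lay between 7.73 and 8.66, and the 60 arrays of the other 5 compounds of block 1O between 9.09 and 10.08. Elsewhere in the series 46 of 409 arrays lay below the highest Nif array, 17 in block 1D, 15 in 1H, 13 in 1F and 1 in 1J. So the Nif signals were low for their block rather than below every array of the series, whose lowest vehicle array, in block 1H at day 1, stood at 7.70.

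Set against the mean of CFX, Clon, Ibup, Praz and Prop livers on the same day, with no vehicle array involved, Hnf4a was lower in Nif livers, with differences of -1.48 to -1.16, called on 4 of 4 days in both probe sets. Cebpa differed by -1.53 to -1.05, also lower on 4 of 4 days, and Foxa3 on day 3 only. Here the background was 1.4% of probe sets lower and 0.522% higher. The Foxa3 call ended under quantile normalization, at -0.68 (adjusted p = 0.0503), and without the arrays of any 1 replicate number.

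The set of strongly hepatotoxic compounds was chosen from general knowledge and not from these arrays. It was TAA, DMN, AB1 and MPy at days 3 and 7 and ETH and AlAl at days 1, 3, 7 and 14. Each change was taken within its own block and subtracted from the Nif change of the same day. The Hnf4a change was lower with Nif in 15 of 16 such contrasts by the call rule, with differences between -1.45 against ETH at day 1 and -0.64 against AB1 at day 3. AlAl at day 3 was not called, at -0.77 (SE 0.23, adjusted p = 0.0691). Against their own vehicles these 16 groups had Hnf4a changes from -0.60 to 0.26, of which 1, AB1 at day 7, was called. These contrasts compare changes and not levels. Vehicle Hnf4a was lower in the blocks of TAA, AB1 and MPy (1D, 8.81), AlAl (1F, 8.91), ETH (1H, 8.76) and DMN (1C, 9.21) than in 1O (9.47). Treated group means ran from 8.22 (AB1 at day 7) to 9.25 (DMN at day 3), and Nif means from 8.06 to 8.40. The part of the vehicle level in these contrasts was not tested. Of all probe sets, AlAl livers had 2, 10, 4 and 0 higher and 0, 1, 0 and 0 lower at days 1, 3, 7 and 14. DMN livers at day 3 had 17 higher and 4 lower, and Nif groups 6 to 135 higher and 155 to 226 lower. So AlAl livers, and DMN livers at day 3, differed from vehicle in few probe sets. The AB1 contrast at day 3 missed the threshold with consecutive vehicle arrays averaged (adjusted p = 0.0526). The second Hnf4a probe set was called in 7 of 16, and Cebpa in 13 of 16, with -0.44 against ETH at day 1 as its smallest difference. The 16 contrasts had a background of 2.71% lower and 2.27% higher, and those of 1 day share the Nif and vehicle arrays. The number of member calls in the lower direction was 30, and 15 without the arrays numbered 1, which include the lowest Nif arrays of Cebpa on days 1, 3 and 7.

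Foxa1 ran the other way, higher with Nif in 6 of the 16 contrasts, those with ETH on all 4 days (0.81 to 1.47), with TAA at day 3 (0.68) and with DMN at day 3 (0.77). Those calls numbered 3 without the arrays numbered 1. Foxa3 was lower in 2 contrasts, with ETH at day 3 (-1.77) and MPy at day 7 (-1.26), the MPy one at -0.25 without the arrays numbered 1 (adjusted p = 0.856) and with an adjusted p of 0.0598 with consecutive vehicle arrays averaged. Cebpb, Foxa2 and Onecut1 differed in none by the call rule. Aap is timed in hours and was not subtracted. Its Hnf4a changes of 0.28, 0.41, 0.06 and -0.15 at 6, 12, 24 and 48 hours stand beside the Nif changes without a test.

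In the list of other liver transcription factors few genes were called in Nif livers, with 1 of 40 measured genes lower at each day and 1 higher at days 3, 7 and 14. Over all 10411 genes, 0.355%, 0.432%, 0.557% and 0.48% were lower and 0.048%, 0.499%, 0.807% and 0.432% higher at days 1, 3, 7 and 14. The gene that fell was Rxra, the retinoid X receptor that pairs with many liver nuclear receptors, by 0.70 to 1.00 on the log2 scale, and the gene that rose was Nfia, a nuclear factor I member, by 0.66, 0.73 and 0.65. The list's median change ran from 0.02 to 0.06, and over all 10411 genes from -0.02 to 0.01. Of 45 measured genes for hepatocyte products, 3 were lower at day 1 and 4 at each later day. They were Acadsb (branched-chain acyl-CoA dehydrogenase), Mug1 (a secreted protease inhibitor), Ppp1r3b (a glycogen-targeting phosphatase subunit) and, from day 3, Cps1 (the entry enzyme of the urea cycle). Acadsb had the largest of these falls, with changes between -2.39 and -2.11. Both lists were chosen with earlier results of these data known. Within groups, Acadsb and Mug1 ranked 1 and 2 for correlation with Hnf4a (r 0.69 and 0.65), and Ppp1r3b ranked 2 for Cebpa (r 0.55). Counts on these lists, here and below, are therefore no independent support for the members' changes. Gys2, liver glycogen synthase, was higher at days 1 and 7 (0.71 and 0.70), and Apom at day 14 (0.60).

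Marker lists of other cells and tissues had few calls in Nif livers. Macrophage, lymphocyte and neutrophil, bile duct, red cell, muscle, adipose and pancreas lists had 0 calls on any day, as did the cell cycle and acute phase lists. The endothelial list had 1 of 6 and the stellate cell list 3 of 13 higher at day 14, when 0.432% of all genes were higher. Mean macrophage marker levels at day 7 were 9.55 to 9.76 in Nif livers and 9.21 to 9.47 in vehicle livers, without a called gene, and at day 14 the stellate list stood at 7.63 to 7.95 in Nif livers and 7.44 to 7.54 in vehicle livers. Their part in the falls was not tested.

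Acetamide and dehydroepiandrosterone, both in block 1D, gave most of the Hnf4a rises. At day 1 it measured 9.95, 9.92 and 10.13 in DHEA livers, against 8.60, 8.56 and 8.77 in vehicle livers, a change of 1.36 (SE 0.16, adjusted p = 2.21e-12). AA livers of that day measured 9.94, 10.07 and 9.89 against the same vehicle arrays, a change of 1.32 (SE 0.16, adjusted p = 1.03e-10). Neither group overlapped its vehicle. The background of probe sets called higher was 2.21% for DHEA and 0.87% for AA at day 1.

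Later times kept the direction. AA livers had changes of 1.02, 0.78 and 0.87 at days 3, 7 and 14, and DHEA livers 0.80, 0.81 and 0.56, of which the last was not past 1.5-fold. Probe sets called higher made up 0.901%, 3.52% and 0.46% in the AA groups of days 3, 7 and 14, and 2.48%, 3.32% and 2.29% in the DHEA groups. Those called lower made up 0.258%, 1.42% and 0.284% in the AA groups and 1.75%, 2.58% and 2.24% in the DHEA groups. The DHEA change was smaller at day 14 than at day 1 by -0.80 (SE 0.23, adjusted p = 0.0252). The second probe set was called for AA at day 1 (0.82) and for DHEA at days 1 and 7 (0.77 and 0.60), and it had 0.53, 0.34 and 0.46 in AA livers at days 3, 7 and 14.

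Other compounds on the same vehicle arrays did not share the rise. At day 1 the Hnf4a change was -0.02 in Mcarb livers and -0.04 in Wy livers (SE 0.16 each). All 18 Mcarb and Wy arrays lay between 8.39 and 9.08, below the lowest of the 24 AA and DHEA arrays, which ran from 9.31 to 10.13 with a median of 9.73. Vehicle arrays of the block ran from 8.56 to 9.39 with a median of 8.76. Vehicle arrays of blocks other than 1D, 1F and 1H had a median of 9.43, so AA and DHEA livers were high for their block and nearer to the vehicle level of those blocks. AA at day 7 overlapped its vehicle, through 1 of 6 vehicle arrays at 9.39, which is numbered 4 and follows an array at 8.74.

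**Figure D3:**
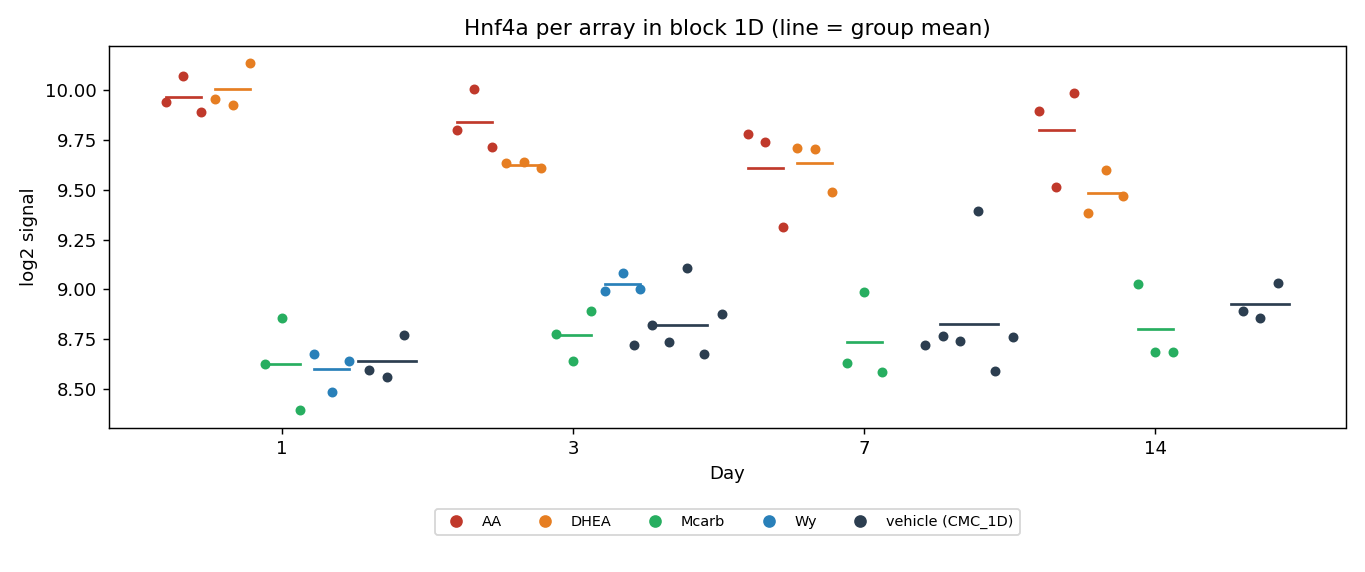
Log2 signal of Hnf4a per array by day in block 1D, in livers given AA, DHEA, Mcarb or Wy (Wy at days 1 and 3) and in vehicle livers (right of each day), with lines at group means. AA and DHEA arrays sit between 9.31 and 10.13, above all Mcarb and Wy arrays and above all vehicle arrays but 1.

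Cebpa rose in part of the same groups. DHEA livers at day 7 measured 9.33, 9.42 and 9.37, against 8.25, 8.30, 8.70, 9.25, 8.00 and 8.16 in vehicle livers, a change of 0.93 (SE 0.20, adjusted p = 7.86e-05) with no overlap, and 0.93 with consecutive vehicle arrays averaged (SE 0.23, adjusted p = 0.000938). DHEA was called at day 14 (0.75) and day 1 (0.69, adjusted p = 0.0276) as well, and AA at day 1 (0.74, adjusted p = 0.0363). The day 1 DHEA call ended without the third DHEA array (0.40, adjusted p = 0.340) and without any 1 vehicle array (0.65 to 0.73, adjusted p 0.0503 to 0.0923). Foxa3 at DHEA day 1 (0.74) was called at 1.14 without the second DHEA array and at 1.08 without the first vehicle array. The AA call of Cebpa ended without the arrays of any 1 replicate number, and the day 14 DHEA call without those numbered 1 (0.48, adjusted p = 0.325). Foxa3 rose in AA livers at day 1, with 8.72, 8.67 and 8.58, against 8.23, 6.43 and 8.02 in vehicle livers (change 1.10, SE 0.33, adjusted p = 0.0260), and was 0.53 without the arrays numbered 2 (adjusted p = 0.616), which include the low vehicle array.

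Of the 10 macrophage markers, 5 were higher in AA livers at day 1 and 8 at day 7, with mean levels of 10.29 to 10.64 in AA livers and 8.81 to 9.41 in vehicle livers at day 7. In DHEA livers 2 were higher at day 1, and 4, 2 and 7 were lower at days 3, 7 and 14. Cell cycle genes were called higher in 11 of 18 cases in DHEA livers at days 1 and 3 and in 13 of 18 in AA livers at day 7. Of 45 hepatocyte products, 3 were higher in AA livers on each day, and 3 were lower at day 7 and 1 at day 14. DHEA livers had 3, 3, 2 and 1 higher and 3, 4, 9 and 6 lower at days 1, 3, 7 and 14. Over all 10411 genes, 0.509%, 0.586%, 3.51% and 0.269% were higher and 0.24%, 0.182%, 1.53% and 0.288% lower in AA livers on these days. In DHEA livers 1.78%, 2.57%, 3.47% and 2.58% were higher and 0.807%, 1.86%, 2.87% and 2.56% lower. The part of these lists in the Hnf4a rises was not tested.

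The genes that fell in Nif livers overlapped those that rose in AA and DHEA livers, which share no array with the Nif comparisons, while AA and DHEA share vehicle arrays with each other. Of 120 probe sets called lower at all 4 Nif times, 61 were called higher in AA livers at day 1, which is 50.8% of the Nif list and 44.2% of the 138 of AA. For DHEA at day 1, 80 were shared, which is 66.7% of the Nif list and 22.9% of the 350 of DHEA. Mcarb at day 1 shared 0 of its 24, and Wy 11 of its 384, which is 9.17% of the Nif list and 2.86% of the Wy list. Of all probe sets, 0.87% were called higher in AA, 2.21% in DHEA, 0.151% in Mcarb and 2.42% in Wy livers at day 1. The median change of the 120 probe sets was 0.60 in AA livers, 0.71 in DHEA livers, -0.04 in Mcarb livers and -0.03 in Wy livers at day 1. The labels do not say which arrays were processed together. Compound and array processing therefore cannot be told apart in the Nif, AA and DHEA differences, and the part of either was not tested.

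The genes whose changes over the 98 groups were most like that of Hnf4a were Golph3 (Pearson r 0.90), Rxra (0.85), Snrk (0.83), Gpam (0.82) and Acadsb (0.81). Golph3 encodes a Golgi protein, Snrk a kinase and Gpam the enzyme that starts triglyceride synthesis. These groups share vehicle arrays within a block, and the Nif, AA and DHEA groups enter the correlation. Golph3 fell by 0.67 to 0.90 in Nif livers and rose by 0.67 in AA and 0.72 in DHEA livers at day 1. For Cebpa the list was Acox3 (0.82), Vps52 (0.75), Met (0.74), Rnf4 (0.74) and Golph3 (0.74). Hnf4a and Cebpa had r = 0.73 over changes and 0.47 over 421 within-group deviations.

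Hnf4a was called in 4 other groups. CIDB livers at day 3 measured 10.09, 9.79 and 10.09, against 8.79, 9.44 and 9.35 in vehicle livers (change 0.80, SE 0.16, adjusted p = 0.000153, background 1.02%), and stood at 0.55 without the arrays numbered 1 (adjusted p = 0.0819). CIDB at day 7 had a change of 0.57, under the fold of the call rule, and was called at 0.60 to 0.66 without any 1 of 3 arrays. The others were near the 1.5-fold limit, namely NNK at day 7 (-0.61, background 0.158%), AB1 at day 7 (-0.60, background 1.4%) and PBO at day 1 (0.59, background 4.48%). The AB1 call ended with the vehicle array at 9.39 left out (-0.49), the NNK call without the arrays numbered 1 or 3 (-0.51 and -0.56), and the PBO change stood at 0.31 without the arrays numbered 2, which include the vehicle array at 7.70. None of these 4 was called in the second probe set.

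Marker lists moved in part of these groups. In AB1 livers at day 7, 5 of 8 bile duct markers were higher, with mean levels of 6.88 to 7.98 in AB1 livers and 6.42 to 6.54 in vehicle livers. There, 7 of 10 macrophage markers were higher and 1 lower (9.40 to 10.11 in AB1 livers and 8.81 to 9.41 in vehicle livers), 5 of 13 stellate markers were higher (7.81 to 8.40 in AB1 livers and 7.50 to 7.68 in vehicle livers), and 5 of 45 hepatocyte products and 2 of 4 red cell markers were lower. The share over all genes in that group was 2.81% higher and 1.55% lower. In PBO livers at day 1, 17 of 18 cell cycle genes were higher, with mean levels of 8.17 to 8.59 in PBO livers and 7.09 to 7.27 in vehicle livers, and 9 of 45 hepatocyte products, 5 of 40 other liver factors and 3 of 21 acute phase genes were lower, with 5.08% of all genes higher and 2.57% lower. CIDB livers at day 3 had 2 of 18 cell cycle genes higher and 1 of 10 macrophage markers lower, and NNK livers at day 7 had 1 of 18 cell cycle genes and 1 of 13 stellate markers higher. Over all genes, 0.893% were higher and 1.41% lower in that CIDB group, and 0.269% higher and 0.182% lower in that NNK group. The part of these lists in the Hnf4a and Foxa1 changes of the same groups was not tested.

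Ethionine, an antimetabolite of methionine, gave the lowest Foxa1 group mean of the series, 6.41 at day 3. At day 1 Foxa1 measured 6.45, 6.49 and 6.59 in ETH livers, against 7.47, 7.71, 7.75 and 7.29 in vehicle livers. The change was -1.05 (SE 0.15, adjusted p = 1.15e-10), and the groups did not overlap at any of the 4 days. Foxa1 was called lower at all 4 days, with changes between -1.05 and -0.64, and 4.39%, 4.98%, 1.58% and 3% of all probe sets called lower at days 1, 3, 7 and 14. Foxa1 was also lower in PBO livers at day 1 (-0.61, background 2.31%), at -0.49 without the arrays numbered 1 and -0.54 without those numbered 2, both under the fold of the call rule.

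Other members moved less steadily in ETH livers. Cebpb rose at day 3, with 10.69, 11.19 and 10.77, against 10.24, 10.31, 9.54 and 10.04 in vehicle livers (change 0.85, SE 0.23, adjusted p = 0.00118, background 7.91% higher). Foxa3 rose at day 3 (0.79, adjusted p = 0.0305), through a highest array at 10.00, and stood at 0.37 without the arrays numbered 2 (adjusted p = 0.49). Cebpa at day 1 (-0.59, adjusted p = 0.0269) overlapped its vehicle and was -0.16 without the second ETH array (adjusted p = 0.731), whose value was 6.74, and -0.44 or -0.43 without the first or the fourth vehicle array. Without that first vehicle array Foxa3 at day 1 was called, at 0.83, where it otherwise had 0.52. Hnf4a changed by less than 1.5-fold at every ETH time, and its second probe set differed between day 14 and day 1 by -0.78 (SE 0.17, adjusted p = 0.000212).

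In ETH livers 12, 16, 3 and 6 of 45 hepatocyte products were lower at days 1, 3, 7 and 14, and 5, 9, 9 and 8 of 10 macrophage markers were higher, with 1 lower at each day. Over all 10411 genes, 5.39%, 9.38%, 2.93% and 4.99% were higher and 4.55%, 5.8%, 1.71% and 3.59% lower on these days. Macrophage marker means were 10.59 to 10.90 in ETH livers and 9.07 to 9.38 in vehicle livers at day 3. At day 14, 3 of 8 bile duct markers were higher. Onecut2, a relative of Onecut1, was lower at days 1, 3 and 14 (-0.68, -1.25 and -0.90), and Ddit3, a stress-induced C/EBP relative, was higher at days 1, 3 and 14 (1.03, 2.45 and 0.73). The part of the macrophage and bile duct markers in the Foxa1 falls was not tested.

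Acetaminophen, whose high doses injure the liver within hours, moved 5 members at different times. Cebpb rose first, with 12.21, 11.63 and 11.95 in Aap livers, against 9.60, 10.51 and 10.96 in vehicle livers at 6 hours, a change of 1.57 (SE 0.25, adjusted p = 3.51e-08). Foxa2 measured 7.09, 7.87 and 7.32 in Aap livers, against 8.34, 8.83 and 8.88 in vehicle livers at the same time, a change of -1.26 (SE 0.36, adjusted p = 0.00708). Both groups lay apart from vehicle. The Foxa2 change was -1.09 without the first Aap array (adjusted p = 0.0614). The background at 6 hours was 2.75% of probe sets higher and 2.51% lower.

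At 24 hours Cebpb (1.16) was still higher and Foxa2 (-0.93, adjusted p = 0.0373) lower, on a background of 6.72% higher and 4.08% lower, and the Foxa2 call ended without the arrays of any 1 replicate number. Foxa1 fell at 24 hours, with 6.70, 6.79 and 6.40 in Aap livers, against 7.50, 7.44 and 7.61 in vehicle livers (change -0.88, SE 0.16, adjusted p = 3.88e-07). It was as low at 48 hours (-0.88), when Cebpa was lower (-0.63, adjusted p = 0.0220) and Foxa3 higher (0.80, adjusted p = 0.0417), with 6.01% of all probe sets higher and 4.03% lower. Foxa3 overlapped its vehicle there, through a highest Aap array at 10.26, and stood at 0.35 without the arrays numbered 3 (adjusted p = 0.57). The Cebpa call ended without the arrays numbered 2 or 3 (-0.54 and -0.56). No member was called at 12 hours.

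In Aap livers the changes of 3 members differed by test between the last and the first time. They were among 270 such tests, 1 per probe set of a member and compound. The share of all probe sets that differed is not given here, so the count of 3 has no background beside it. The Aap change at 48 hours minus that at 6 hours was -1.04 for Cebpb (SE 0.35, adjusted p = 0.0169), -0.72 for Foxa1 (SE 0.22, adjusted p = 0.00742) and 1.23 for Foxa3 (SE 0.47, adjusted p = 0.0384). For Foxa2 it was 0.87 (SE 0.51, adjusted p = 0.213).

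**Figure D4:**
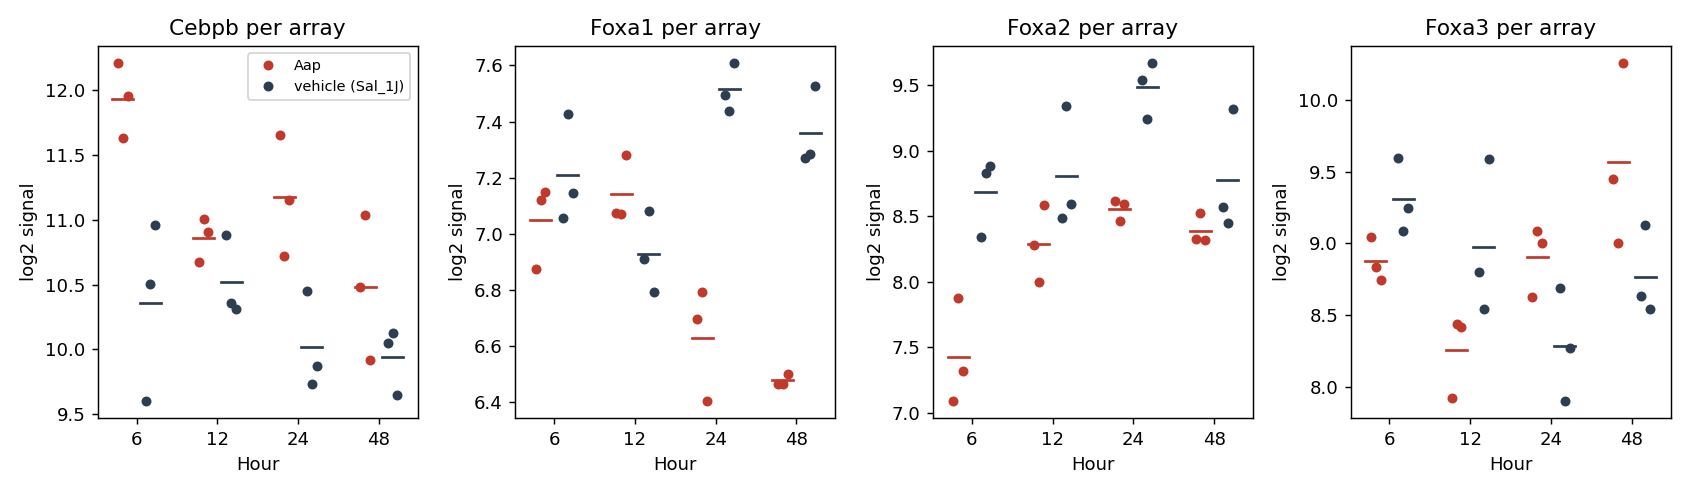
Log2 signal per array of Cebpb, Foxa1, Foxa2 and Foxa3 by hour in Aap livers (red, left of each hour) and saline vehicle livers (dark, right), with lines at group means. Cebpb is highest and Foxa2 lowest in Aap livers at 6 hours, and Foxa1 is low at 24 and 48 hours.

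Other cells' markers moved in Aap livers too. The muscle list had 7 of 7 genes higher at 6 hours, all through the third Aap array, whose mean muscle level was 10.86, against 5.75 and 5.72 on the other Aap arrays and 5.69 to 5.88 on the vehicle arrays. For Cebpb and Foxa2 that array lay between the other two Aap arrays. At 48 hours 17 of 18 cell cycle genes and 4 of 10 macrophage markers were higher and 1 lower, with macrophage means of 10.36 to 10.65 in Aap livers and 9.33 to 9.61 in vehicle livers, and 14 of 45 hepatocyte products were lower. At that time 5 of 13 stellate markers were higher and 1 lower, with means of 7.75 to 9.12 in Aap livers and 7.76 to 7.89 in vehicle livers, and 2 of 4 red cell markers were lower, with means of 7.73 to 8.00 in Aap livers and 9.37 to 9.68 in vehicle livers. At 24 hours 3 of 10 macrophage markers were higher and 2 lower, and 12 of 45 hepatocyte products were lower and 1 higher. Acute phase genes were higher in 3, 4 and 5 of 21 cases at 6, 24 and 48 hours. Among the 40 other liver factors, 4, 6 and 5 were higher and 9, 5 and 7 lower at 6, 24 and 48 hours. Over all 10411 genes, 3.06%, 7.95% and 7.12% were higher and 2.81%, 4.8% and 4.41% lower at these hours. Nr3c1, the glucocorticoid receptor, was lower at these 3 times (-0.75, -1.22 and -1.31), and Stat3, a mediator of the acute phase, was higher (1.32, 0.93 and 0.62). The part of these lists in the members' changes was not tested.

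Cebpb also rose in 3-MC livers at day 7, with 10.68, 10.88 and 11.21, against 9.82, 9.43 and 10.08 in vehicle livers (change 1.14, SE 0.25, adjusted p = 0.000744, background 0.7%), and stood at 0.99 without the arrays numbered 2 (adjusted p = 0.067). Weaker rises were NNM at day 3 (0.91, adjusted p = 0.0295, background 0.403%) and MPy at day 3 (0.63, adjusted p = 0.0375, background 0.901%), and both calls ended without the arrays of any 1 replicate number. The MPy call also ended with consecutive vehicle arrays averaged (0.63, adjusted p = 0.123). Foxa3 had its largest rise in CIDB livers at day 7, with 8.89, 9.51 and 9.38, against 7.78, 8.12 and 7.57 in vehicle livers (change 1.44, SE 0.33, adjusted p = 0.000458, background 2.38%). Its largest fall was in DES livers at day 3, with 7.59, 7.28 and 7.09, against 8.25, 8.37, 8.47 and 8.33 in vehicle livers (change -1.03, SE 0.31, adjusted p = 0.0135, background 1.85%). That call ended without the second DES array (adjusted p = 0.0520) or the third (adjusted p = 0.0838).

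In CIDB livers at day 7, 4 of 10 macrophage markers were higher and 1 lower, with mean levels of 9.45 to 9.64 in CIDB livers and 8.92 to 9.38 in vehicle livers, 2 of 8 bile duct and 2 of 13 stellate markers were higher and 2 of 4 red cell markers lower. Of 18 cell cycle genes, 1 was higher and 3 lower there. DES livers at day 3 had 8 of 45 hepatocyte products lower, with mean levels of 12.26 to 12.39 in DES livers and 12.62 to 12.71 in vehicle livers, 3 of 18 cell cycle genes higher and 1 of 8 bile duct markers lower. In MPy livers at day 3, 9 of 18 cell cycle genes were higher, with mean levels of 7.61 to 7.98 in MPy livers and 6.95 to 7.38 in vehicle livers, and 1 of 10 macrophage markers. NNM livers at day 3 had 1 of 18 cell cycle genes higher, and 3-MC livers at day 7 had 2 of 10 macrophage markers, 1 of 8 bile duct markers and 1 of 21 acute phase genes higher. Over all genes, the shares higher in these CIDB, DES, MPy, NNM and 3-MC groups were 2.47%, 1.51%, 1.06%, 0.375% and 0.816%. The shares lower were 1.91%, 2.19%, 0.221%, 0.115% and 0.528%. The part of these lists in the Foxa3 and Cebpb changes was not tested.

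The agreement of probe sets could be read for 2 genes. Both Hnf4a probe sets changed in the same direction in 85 of 98 groups, with r = 0.94 over changes and 0.70 over 421 within-group deviations. In the 15 groups called by the first, the second had the same sign in all 15 and was called in 7, and in none was it called alone. Its change was a median 0.51 of the first one in those groups. The second set's smaller changes lie under 1.5-fold in the other 8 groups.

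Both Onecut1 probe sets varied together, with the same sign in 89 of 98 groups, r = 0.92 over changes and 0.96 within groups, and neither was called in any group. Group changes of the first ran from -2.57 in Clon livers at day 14 to 1.83 in AlAl livers at day 3, with an SE of 0.99 each. In Clon livers it measured 6.76, 7.31 and 7.03, against 10.29, 9.45 and 9.07 in vehicle livers, with no overlap, adjusted p = 0.547 and 5 of 98 groups at an unadjusted p under 0.05. In AlAl livers it measured 10.44, 9.83 and 7.65, against 6.14, 9.83 and 6.45 in vehicle livers. The vehicle arrays of that 1 group thus lay further apart than its treated arrays, and 17 of 38 vehicle groups had an Onecut1 range over 2.

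That spread was shared with other genes array by array. Over 421 arrays, each minus its group mean, Onecut1 had r = 0.88 with Socs2, 0.88 over treated and 0.87 over vehicle arrays. Foxa2 had r = 0.85 with Cish, 0.84 over treated and 0.86 over vehicle arrays. Socs2 and Cish are known as genes that growth hormone induces through Stat5. They are shown because each had the highest such r of all named genes with its member. Next came Slc25a30 (0.84) and Birc2 (0.79) for Onecut1, and Net1 (0.84), Hhex (0.81) and Dusp6 (0.79) for Foxa2. The crossed pairs were weaker, at 0.49 for Onecut1 with Cish and 0.50 for Foxa2 with Socs2. A part of growth hormone in this spread was not tested. With consecutive arrays of the groups of 6 averaged, over 409 values, r was 0.88 for Onecut1 with Socs2 and 0.85 for Foxa2 with Cish. Onecut1 and Foxa2 had r = 0.58 with each other, and Hnf4a had -0.08 with Socs2 and -0.15 with Cish.

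**Figure D5:**
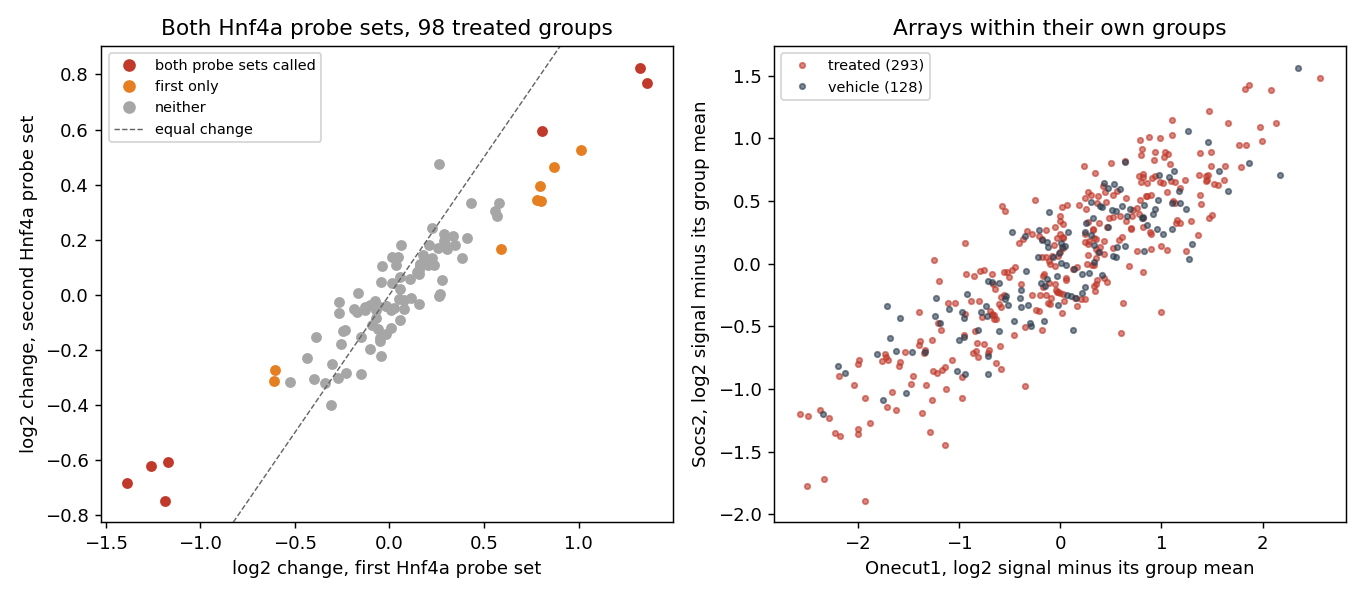
Left, log2 change of the second against the first Hnf4a probe set in 98 treated groups, with a dashed line of equal change, where the called groups lie on the flat side of the line. Right, Socs2 against Onecut1 per array, each minus its group mean in log2 units, for 293 treated and 128 vehicle arrays, where both kinds of array form 1 band (r = 0.88).

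By change over groups, Onecut1 was most like Socs2 (0.73), Foxo3 (0.70), Aff1 (0.68), Tmx4 (0.65) and B3gnt2 (0.64), and Foxa2 most like Hhex (0.82), a homeobox factor of the early liver, Vgll4 (0.73), Cish (0.71), Net1 (0.69) and Zfp455l1 (0.65). Foxa1 was most like Ntpcr (0.79), Fah (0.73), Slco2b1 (0.72), Echdc3 (0.72) and Ptprd (0.71). Correlations were lower for Cebpb, with Wdr82 (0.66), Baz1a (0.63), Coq10b (0.63), Clp1 (0.61) and Ubald1 (0.59), and for Foxa3, with Arf6 (0.58), Rhog (0.53), Pafah1b2 (0.50), Ptprc (0.49) and Ccdc97 (0.49). Among the members, pairs other than Hnf4a with Cebpa and Foxa2 with Onecut1 (0.59) had r between -0.32 and 0.37 over changes.

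The compound classes of the study were compared here by a test on 1 change per compound, and no member was called. The study itself did otherwise, training classifiers on fold changes of mRNA, miRNA and protein per sample. Since the test called 0% of all probe sets, it cannot show that a member is alike in the classes. The non-genotoxic carcinogens were PB, DHEA, AA, Mcarb and ETH at day 14, MPy at day 7, and PBO and DES at day 3, the genotoxic ones CIDB and DMN at day 7, and the non-carcinogens CFX and Nif at day 14. Between 8 non-genotoxic and 2 genotoxic carcinogens 0% of probe sets were called, with 1442 at an unadjusted p under 0.05, and the smallest adjusted p of a member was 0.490, for Onecut1 (difference -1.11, SE 0.43). Foxa3 averaged -0.03 for the non-genotoxic and 0.88 for the genotoxic carcinogens (difference -0.91, SE 0.39, adjusted p = 0.532). Between 10 carcinogens and 2 non-carcinogens 0% were called as well, with 1211 at an unadjusted p under 0.05. Cebpa averaged 0.06 for carcinogens and -0.91 for non-carcinogens (difference 0.96, SE 0.36, adjusted p = 0.582), and 1 of these 2 non-carcinogens is Nif.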

How the data were processed

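Liver RNA was hybridised to Affymetrix RAE230A arrays. The authors corrected background, normalized between arrays and summarised probes by RMA (version not given in the sources used here), and the deposited log2 values, 1 per probe set and array, were used as they stand. No missing value was present. Probe sets were named through the platform's annotation, updated by gene identifier: 12783 of 15866 had 1 symbol, 312 several and 2771 none here. The members and gene lists were chosen with earlier results of these data known. 1 mean per group was fitted over all 421 arrays with limma 3.58.1 in R 4.3.3 (empirical Bayes), each treated group was contrasted with its labelled vehicle group, and p-values were adjusted by Benjamini-Hochberg over all probe sets within a contrast, not over the 98 contrasts. A change was called at adjusted p under 0.05 and at least 1.5-fold. The probe set with the highest mean stood for a gene. Named genes were all members, each with every array value in the groups of its largest called rise and fall and in Nif, and the 5 genes with the most similar changes. The fit was tested on simulated data. As alternatives, only the compared groups were fitted, or the settings were quantile normalization, a mean of at least 6, the replicate number as a block, the other probe sets, arrays left out, and, added after the data were seen, consecutive arrays of the vehicle groups of 6 averaged. The number of arrays limits the precision. Promoter windows were those of RefSeq.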

Additional observations from a re-analysis of the deposited data

Results flagged for a closer look

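In the vehicle group of block 1D at day 7, the fourth of 6 arrays had an Hnf4a signal of 9.39. It lay apart from the nearest array at 8.76 by a share of 0.782 of the group's range, the 1 flag in 54 such checks. No chance figure is given, since arrays of this group may be repeats. The array numbered 3, whose deviations over all probe sets correlated with those of the fourth, stood at 8.74. Changes differed between the last and the first time, by a test of the difference, for 3 compounds, among 270 such tests. Hnf4a was less raised at day 14 than at day 1 in DHEA livers by -0.80, and the second probe set differed by -0.78 between days 14 and 1 in ETH livers. In Aap livers the change at 48 hours minus that at 6 hours was -1.04 for Cebpb, -0.72 for Foxa1 and 1.23 for Foxa3.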

How the results depend on the processing

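Direction was kept by every called member value under every alternative run. Of the 46 calls against vehicle, 36 were shared with the fit of the compared groups only, 40 with quantile normalization, 46 with a mean of at least 6 and 44 with the replicate block. Without the arrays numbered 1, falls in treated groups numbered 15 (21 rises), and Nif against hepatotoxic compounds had 15 lower and 3 higher calls. Leaving out the arrays of 1 replicate number gave 16 to 21 rises and 15 to 20 falls over all groups, 15 to 28 lower and 3 to 6 higher calls in the hepatotoxic contrasts and 8 to 9 lower calls against the other compounds of block 1O. Nif falls, 9 in all, numbered 6 to 10 over those settings and the 24 single arrays left out. With the other probe sets of Hnf4a and Onecut1 there were 17 rises and 21 falls. The cause of these differences was not tested. Same-numbered arrays were not paired: over 293 pairs of treated and vehicle arrays the mean correlation of deviations was 0.01, and 4 of 98 groups had every pair over 0.1. The replicate block gave 23 rises and 22 falls over all groups, 9 Nif falls, 29 lower and 6 higher calls in the hepatotoxic contrasts and 9 against block 1O, and it ended the calls of Hnf4a for AB1 at day 7 (-0.53) and PBO at day 1 (0.55) and of Foxa3 for Nif against MPy at day 7 (-1.21). Class comparisons had 0 members called in each setting. The vehicle array of block 1D at 9.39 was left out after seeing the data, which gave 23 rises and 22 falls over all groups and 31 lower calls in the hepatotoxic contrasts. With the consecutive arrays of the 4 vehicle groups of 6 averaged, also chosen after seeing the data, there were 22 rises and 23 falls over all groups, 9 Nif falls, and 28 lower and 6 higher calls in the hepatotoxic contrasts, where 34 of the 36 calls were shared. Array number limits what Foxa3, Foxa2 and Onecut1 can show.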
